A study of Mus musculus with 12 samples.

Results

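Chemokines are small secreted proteins that guide leukocytes, and their receptors are proteins of the G protein-coupled class on the cells they attract. They were examined on Illumina bead arrays of mouse gonadal adipose tissue (GWAT) and liver. All probes whose annotated gene symbol has the form of a chemokine ligand (Ccl, Cxcl, Cx3cl1, Xcl1) or of a chemokine receptor (Ccr, Cxcr, Cx3cr1, Xcr1) were taken. There were 78 such probes among 45281 on the array, for 53 of the 19057 genes with a named probe, of which 36 encode ligands and 17 receptors. The samples were GWAT labelled Cav1 knockout (KO) and GWAT labelled wild type (WT), from male FVB mice of 8 weeks, and KO and WT liver from male FVB mice of 12 weeks, with 3 arrays per group. Cav1 encodes caveolin-1, the main coat protein of caveolae. The labels speak of a Cav1 knockout without saying which cells or which allele it covers, and they do not say whether the arrays of a group came from separate animals. The p-values therefore rest on a spread between samples that could be technical only.

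Values are the deposited normalized intensities, which were made comparable within each tissue but not between tissues. Background was set per array at the 95th percentile of 1528 probes for olfactory, vomeronasal and trace amine receptors, and brighter probes were taken as above it. That level was 70.3 to 73.8 on the GWAT arrays and 121 to 124 on the liver arrays. Members were kept in a tissue when above background on at least 3 of its 6 arrays, and fold changes are on the log2 scale after background correction. Each adjusted p in the text is from limma with Benjamini-Hochberg adjustment, with 0.05 as the threshold. It is over all genes tested in the tissue, or over all probes tested where that is stated. For the difference between tissues it is over the genes or probes of a joint fit of both. For the alternatives it is over those tested under that setting.

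Cav1 itself ran against the labels in GWAT. Its single probe averaged 15729 ± 1535 on the arrays labelled KO and 110 ± 2.26 on those labelled WT (SD, n = 3 each; log2 difference 7.87, adjusted p = 1.40e-12). In liver it averaged 114 ± 3.60 on the KO arrays, below background on all of them, and 183 ± 23.8 on the WT arrays (SD, n = 3 each; adjusted p = 0.0124). GWAT directions are therefore given by label, and exchanged labels would reverse them. Hepatocyte markers were above background in liver (10 of 10 measured), and adipocyte markers in GWAT (9 of 9 on the array).

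Ligands fall into families by the spacing of their first cysteines, the CC and the CXC families being the largest. One group keeps order in resting tissue, such as Cxcl12, which holds cells that carry Cxcr4, and Ccl19 and Ccl21, which guide cells that carry Ccr7. Another group is switched on in inflammation by cytokines, among them Cxcl9 and Cxcl10, which interferon-gamma induces and which attract T cells and natural killer cells through Cxcr3. In adipose tissue, ligands of Ccr2 such as Ccl2 are known for drawing monocytes.

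More of the family was detected in fat than in liver, as held for all genes (11568 passed in GWAT and 9033 in liver). In GWAT 40 of the 78 probes passed the filter, for 29 genes (24 ligands and 5 receptors). In liver 27 probes passed, for 19 genes (18 ligands and 1 receptor). Genes detected in both tissues numbered 18, all of them ligands. In GWAT alone 11 genes passed, namely Ccl2, Ccl3, Ccl7, Ccl8, Ccl12, Cx3cl1, Ccr6, Ccr7, Cx3cr1, Cxcr3 and Cxcr4, and in liver alone 1 gene, Cxcr1. The background level was set on each tissue's own scale, and those scales are not comparable. Whether dim transcripts were detected equally well in both tissues was not tested. The other 23 genes passed in neither tissue, 11 of them receptors (Ccr1, Ccr2, Ccr3, Ccr4, Ccr8, Ccr9, Ccr10, Cxcr2, Cxcr5, Cxcr6 and Xcr1). The 12 ligands among them were Ccl1, Ccl17, Ccl20, Ccl22, Ccl26, Ccl28, Cxcl2, Cxcl3, Cxcl11, Cxcl15, Cxcl17 and Xcl1.

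Most member probes were above background on all arrays of a tissue or on none, some of them by a small margin. In GWAT 36 probes were above background on all 6 arrays and 26 on none. Just inside the filter, on exactly 3 GWAT arrays, were Ccr7 (78.6 on KO and 70.4 on WT arrays, means of 3), Cxcl10 (101 and 69.2) and 1 of the Cxcl14 probes (77.9 and 70.6). Just outside it, on 2 arrays, were single probes of Ccl25, Ccl4, Ccr6 and Cxcr5, with group means of 65.6 to 72.6. In liver 14 probes were above background on all arrays and 35 on none. On exactly 3 liver arrays were probes of Ccl21c, Ccl25, Cxcl14 and Cxcl16, and on 2 arrays Ccl3, Cx3cl1, Cxcr4 and Cxcr6, the last at 121 on KO and 108 on WT arrays (means of 3).

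In GWAT, 8 of the 29 measured members differed between arrays labelled KO and WT, 3 higher and 5 lower. With arrays weighted by quality 14 were called. The share of all genes called with those weights is not given here, so the 14 has no background. Cxcl9, Cxcl10 and Ccl11 were higher on the arrays labelled KO, of which Cxcl10 passed the filter through those arrays alone and so had to differ. Ccl8, Ccl9, Ccl6, Cxcl12 and the receptor Cxcr4 were lower. The share of members called was 27.6% with Cxcl10 included. The background was 24.9% of the 11568 genes tested (12.7% higher and 12.2% lower), so the number of calls is near that of other genes. The median log2 fold change of the measured members was -0.03, beside 0.01 over all genes. After background correction the KO and WT arrays did not overlap for 5 members that were higher, against 21.5% of all genes. Cxcl10, which had to differ, is among these 5. They did not overlap for 7 that were lower, against 19.8% of all genes. The 21 other members did not pass, and 13 of the 29 had an unadjusted p under 0.05. The share of all genes with such a p is not given here, so the 13 cannot be set against other genes.

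**Figure D1:**
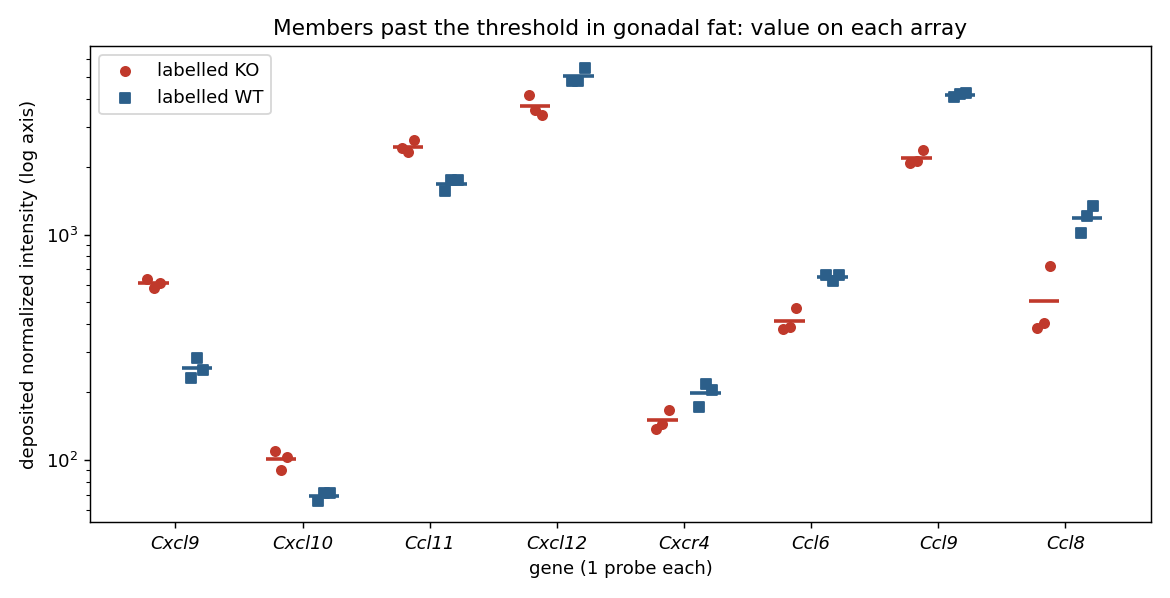
Deposited normalized intensity on each GWAT array (log axis) for the 8 members past the threshold, with arrays labelled KO as circles on the left of each pair, arrays labelled WT as squares on the right, and bars at the group means. The groups do not overlap for any of the 8. Cxcl10 passed the filter through the arrays labelled KO alone, so its separation is no support for a difference. The widest spread within a group is that of Ccl8 on the arrays labelled KO, at 383 to 727.

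The Cxcr3 ligands Cxcl9 and Cxcl10 were higher on the arrays labelled KO. Cxcl11, a further ligand of Cxcr3, was below background on every GWAT array. Cxcl9 read 638, 576 and 606 on the GWAT arrays labelled KO, against 231, 284 and 251 on those labelled WT. Every array labelled KO lay far above every array labelled WT, and Cxcl9 was higher by 1.41 on the log2 scale (SE 0.11, adjusted p = 1.71e-05; intensity ratio 2.38). Cxcl10 read 110, 89.6 and 103 on the arrays labelled KO and 65.9, 71.0 and 70.9 on those labelled WT. It was above background on 3 of 3 arrays labelled KO and 0 of 3 labelled WT, so it passed the filter only through the group where it was high. The ratio of the deposited intensities was 1.45. With the labelled WT arrays set to their background level, which their own values do not reach, it was at least 1.40-fold higher. The fitted log2 difference was 1.06 (adjusted p = 0.00173) and lay between 0.51 and 1.09 over the alternatives, so its size depends on the background correction. With no filter on dim probes the adjusted p was 0.00411.

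The promoters of Cxcl9 and Cxcl10 are shown because both genes moved together and lie near each other on chromosome 5. The sequences are from RefSeq (GRCm38.p6), 250 bases before to 50 after the start, 5′ to 3′ on the strand of the gene. Capitals mark matches to the motifs searched.
Cxcl9, chr5:92328030-92328329, minus strand: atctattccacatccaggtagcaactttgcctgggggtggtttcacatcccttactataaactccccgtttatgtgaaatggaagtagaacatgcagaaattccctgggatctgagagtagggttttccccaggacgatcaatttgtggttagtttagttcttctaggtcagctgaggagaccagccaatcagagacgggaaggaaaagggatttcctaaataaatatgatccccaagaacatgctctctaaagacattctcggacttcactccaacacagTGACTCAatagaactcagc
Cxcl10, chr5:92348840-92349139, minus strand: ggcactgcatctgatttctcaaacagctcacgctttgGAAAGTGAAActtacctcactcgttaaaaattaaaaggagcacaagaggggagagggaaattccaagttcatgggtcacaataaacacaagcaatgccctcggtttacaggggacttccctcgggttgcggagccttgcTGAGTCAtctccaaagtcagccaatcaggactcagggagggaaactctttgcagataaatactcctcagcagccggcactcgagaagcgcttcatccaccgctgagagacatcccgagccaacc

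Motifs were searched on both strands. They were a general and a narrower NF-kB motif, an interferon response element, the STAT motif TTCNNNGAA and the AP-1 motif TGANTCA. The narrower NF-kB motif is a case of the general one, which itself leaves only a single base free. Looser forms of the NF-kB site were not searched. Cxcl10 holds the interferon response element as GAAAGTGAAA at -213 to -204 from the start, an element found in at least 1 promoter of 3.99% of the 27025 genes with a promoter sequence. It also holds TGAGTCA at -74 to -68, and Cxcl9 holds TGACTCA at 32 to 38, a form found for 8.97% of genes. Neither promoter holds the other motifs in this window, where NF-kB sites of a looser form were not looked for.

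The receptor of Cxcl9 and Cxcl10 did not pass the threshold. Cxcr3, which reads these ligands on activated T cells, read 90.8, 92.7 and 87.0 on the GWAT arrays labelled KO and 81.0, 91.6 and 88.2 on those labelled WT. The groups overlapped, and the log2 difference was 0.10 (95% interval -0.24 to 0.43, adjusted p = 0.685). Among T cell markers 1 of 7 measured fell and 0 rose, where 24.9% of all genes were called. That gene was Zap70, a kinase of the T cell receptor, at -0.51 (SE 0.15, adjusted p = 0.0347). Cd28 (0.32, adjusted p = 0.198) and Cd2 (0.19, adjusted p = 0.338) followed, and the list's summed corrected intensity was 2398 to 2547 on the arrays labelled KO and 2479 to 2641 on those labelled WT. Cd5, Cd4, Cd8a and Lat did not pass the filter. Of 4 measured natural killer cell markers 1 fell, the perforin gene Prf1 at -0.52 (SE 0.11, adjusted p = 0.0063), beside Klrd1 at -0.35 (adjusted p = 0.107) and Nkg7 at 0.24 (adjusted p = 0.209). The part of these cells in the Cxcl9 and Cxcl10 differences was not tested. In whole tissue, fewer cells of a type and less RNA per cell cannot be told apart.

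Ccl11, the eotaxin that attracts eosinophils through Ccr3, was the only CC ligand that rose in this comparison. Its brighter probe read 2414, 2338 and 2628 on the arrays labelled KO, against 1564, 1744 and 1741 on those labelled WT. The difference was 0.56 (SE 0.08, adjusted p = 6.26e-04). The second probe read 530, 580 and 725 on the arrays labelled KO and 229, 264 and 354 on those labelled WT, with a larger log2 difference of 1.27 (SE 0.18, adjusted p = 5.22e-04 over probes). The groups were apart on both probes. Ccr3 was below the filter, above background on 1 of 6 GWAT arrays, and the eosinophil markers Siglecf, Epx, Prg2 and Il5ra were below the filter as well.

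The CC ligands Ccl8, Ccl9 and Ccl6 fell. Ccl8, which attracts cells that carry Ccr8 in the mouse, read 383, 405 and 727 on the arrays labelled KO, against 1013, 1212 and 1346 on those labelled WT. KO replicate 3 stood apart from its group but stayed below every WT array, and the difference was -1.38 (SE 0.22, adjusted p = 0.00176). Ccl9, a ligand of Ccr1, read 2072, 2128 and 2378 on the arrays labelled KO and 4092, 4224 and 4233 on those labelled WT. It was the member with the smallest p, at -0.95 (SE 0.07, adjusted p = 1.49e-05), a ratio of 0.524. Ccl6, another ligand of Ccr1, read 382, 387 and 473 on the arrays labelled KO and 659.8, 622 and 661 on those labelled WT. It was lower by a log2 change of -0.71 (SE 0.10, adjusted p = 9.96e-04).

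Ccl9 and Ccl6 are direct neighbours on chromosome 11, and Ccl8 lies elsewhere in the same cluster. Their promoters are shown in the same way, since the 3 genes fell together.
Ccl9, chr11:83578587-83578886, minus strand: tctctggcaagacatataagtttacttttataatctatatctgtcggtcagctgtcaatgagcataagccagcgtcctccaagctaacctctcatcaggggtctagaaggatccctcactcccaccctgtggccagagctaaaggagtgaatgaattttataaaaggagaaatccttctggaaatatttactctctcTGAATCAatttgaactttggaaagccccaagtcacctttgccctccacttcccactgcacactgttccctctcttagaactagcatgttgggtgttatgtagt
Ccl6, chr11:83593038-83593337, minus strand: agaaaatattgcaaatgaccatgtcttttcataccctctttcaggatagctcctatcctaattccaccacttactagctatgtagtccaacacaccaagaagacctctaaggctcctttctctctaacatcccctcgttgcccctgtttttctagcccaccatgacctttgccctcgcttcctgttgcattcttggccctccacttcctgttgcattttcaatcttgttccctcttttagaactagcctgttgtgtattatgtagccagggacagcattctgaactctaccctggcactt
Ccl8, chr11:82114935-82115234, plus strand: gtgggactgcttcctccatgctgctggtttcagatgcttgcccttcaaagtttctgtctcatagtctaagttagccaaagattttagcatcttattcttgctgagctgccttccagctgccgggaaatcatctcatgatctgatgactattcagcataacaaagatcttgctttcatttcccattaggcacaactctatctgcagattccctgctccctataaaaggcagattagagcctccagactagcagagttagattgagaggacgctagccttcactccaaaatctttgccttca

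Of these, Ccl9 holds TGAATCA at -53 to -47, and the other two hold none of the motifs searched. The longest run of bases shared by the Ccl9 and Ccl6 promoters is 13 bases, while the other pairs among the 7 called genes with a sequence share runs of 7 to 11 bases. All 3 promoters are poor in CpG, with 2 CpG each and a GC content of 43.7% for Ccl9, 45.3% for Ccl6 and 44.7% for Ccl8. The median over 32851 RefSeq promoters is 7 CpG and 52.7% GC.

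Genes of the cluster on chromosome 11 did not move as 1 block. In the order of the chromosome, the log2 difference in GWAT was 0.32 for Ccl2 (adjusted p = 0.264), -0.36 for Ccl7 (adjusted p = 0.175), 0.56 for Ccl11, -0.39 for Ccl12 (adjusted p = 0.0509) and -1.38 for Ccl8. Further along it was 0.27 for Ccl5 (adjusted p = 0.258), -0.95 for Ccl9, -0.71 for Ccl6, 0.29 for Ccl3 (adjusted p = 0.333) and 0.42 for Ccl4 (adjusted p = 0.0709). Ccl11, which rose, thus lies between Ccl7 and Ccl12, which read lower without passing.

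Ccl2, Ccl7 and Ccl12 are the ligands of Ccr2, the monocyte receptor. Ccl2 read 81.0, 102 and 91.7 on the arrays labelled KO and 85.7, 82.2 and 75.7 on those labelled WT, with overlap, not far above background. Ccl12 read 153, 164 and 189 on the arrays labelled KO and 206, 208 and 202 on those labelled WT on its brighter probe, with no overlap, but its other probe read -0.05 (adjusted p = 0.815 over probes). Ccl7 read 253, 328 and 351 on the arrays labelled KO and 489.6, 343 and 334 on those labelled WT. None of the 3 passed the threshold, and Ccr2 was below the filter.

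Of 14 macrophage markers measured in the same arrays, 7 fell and 0 rose, with a median of -0.23 beside 0.01 over all genes, of which 12.2% were called lower. Timd4 (0.45), Marco (0.13), Mertk (0.09) and Vsig4 (0.04) lay above 0 without passing. Those that fell included Trem2, a lipid-sensing receptor, at -1.01 (SE 0.11, adjusted p = 1.92e-04), and the complement genes C1qc at -0.62 (SE 0.09, adjusted p = 9.14e-04) and C1qa at -0.56 (SE 0.10, adjusted p = 0.0023). Their summed corrected intensity was 15736 to 16590.1 on the arrays labelled KO and 18903 to 22503 on those labelled WT. Clec4f, a marker of liver macrophages, did not pass the filter. Of 7 mast cell markers 5 fell and 0 rose (12.2% of all genes were called lower), with sums of 885 to 1009.5 on the arrays labelled KO and 1684 to 1976 on those labelled WT. The tryptases Tpsb2 (-1.51, SE 0.14, adjusted p = 7.72e-05) and Tpsab1 (-1.12, SE 0.12, adjusted p = 1.29e-04) and the protease Mcpt4 (-0.98, SE 0.12, adjusted p = 3.98e-04) led that list, and Ms4a2 did not pass the filter. The part of these cells in the falls of Ccl6, Ccl8 and Ccl9 was not tested.

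Cxcl12 and its receptor Cxcr4 were both lower on the arrays labelled KO. Cxcl12, made by stromal cells and endothelium, read 4165.5, 3579.7 and 3411 on the arrays labelled KO and 4796, 4811 and 5517 on those labelled WT on its brightest probe. It fell by 0.45 on the log2 scale (SE 0.09, adjusted p = 0.00525). The probes annotated to other transcripts fell further in GWAT, by 0.99 (SE 0.08, adjusted p = 1.98e-05 over probes) and 0.82 (SE 0.08, adjusted p = 4.11e-05 over probes). A dim further probe read -0.39 (adjusted p = 0.144 over probes), and the last of the 5 probes was below background on every GWAT array. Of all GWAT probes 22.7% passed. Cxcr4 read 137, 145 and 167 on the arrays labelled KO, against 172, 217 and 203 on those labelled WT, with no overlap. Its difference was -0.54 (SE 0.15, adjusted p = 0.0262), but 4 of the 6 arrays could each end the call when left out. The adjusted p was 0.107 without WT replicate 2, 0.0671 without WT replicate 3, 0.0770 without KO replicate 1 and 0.0910 without KO replicate 2.

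The promoters of the ligand and its receptor are shown because both fell and because they differ in composition from those above.
Cxcl12, chr6:117168285-117168584, plus strand: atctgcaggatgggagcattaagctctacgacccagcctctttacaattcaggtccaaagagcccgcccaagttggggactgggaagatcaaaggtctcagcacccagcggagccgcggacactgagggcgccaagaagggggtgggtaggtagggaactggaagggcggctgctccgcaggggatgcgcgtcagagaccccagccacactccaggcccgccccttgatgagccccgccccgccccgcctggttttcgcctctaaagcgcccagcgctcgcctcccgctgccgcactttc
Cxcr4, chr1:128592250-128592549, minus strand: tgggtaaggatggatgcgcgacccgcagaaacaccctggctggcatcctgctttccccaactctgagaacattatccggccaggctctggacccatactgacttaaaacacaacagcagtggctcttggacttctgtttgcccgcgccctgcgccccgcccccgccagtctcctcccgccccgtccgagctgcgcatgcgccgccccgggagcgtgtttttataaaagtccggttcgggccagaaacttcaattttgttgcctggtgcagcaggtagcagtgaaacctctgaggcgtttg

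Each holds 20 CpG, with a GC content of 64.7% for Cxcl12 and 59.3% for Cxcr4, above the median of all promoters, and none of the motifs searched. The general NF-kB motif was found for 4 of the 39 members with a promoter sequence (10.3%, against 0.466% of all genes), which were Cxcl1, Cxcl2, Cxcl3 and Ccr3. Cxcl1, Cxcl2 and Cxcl3 lie near each other on chromosome 5 and hold the same letters, so they need not be separate cases. Of the 4, only Cxcl1 passed the filter in either tissue. The motif was found for none of the 7 called in GWAT, in which looser forms of the NF-kB site were not searched. The narrower one was found for none of the 39 (0.174% of all genes), TTCNNNGAA for 7.69% (9.55% of all genes), the interferon response element for 7.69% and TGANTCA for 17.9%.

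Of 10 fibroblast markers measured, 5 fell and 2 rose (12.2% of all genes were called lower and 12.7% higher), with sums of 28664 to 30788 on the arrays labelled KO and 33429 to 35011 on those labelled WT. Pi16, a marker of fibroblast progenitors, rose by 0.97 (SE 0.09, adjusted p = 5.94e-05). The collagen genes Col1a2 (-1.62, SE 0.17, adjusted p = 1.15e-04) and Col1a1 (-1.34, SE 0.14, adjusted p = 1.39e-04) fell. Endothelial markers were split, with 2 of 12 risen and 2 fallen, led by Cldn5 (0.26, adjusted p = 0.0216), Vwf (-0.36, adjusted p = 0.0268) and Pecam1 (-0.26, adjusted p = 0.0466). Their sums were 11331 to 11928 on the arrays labelled KO and 11674 to 12519 on those labelled WT. The part of these cells in the Cxcl12 difference was not tested.

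The remaining ligands of GWAT did not pass. Cxcl13, which attracts B cells, read 225, 202 and 448 on the arrays labelled KO and 309, 315 and 287 on those labelled WT. KO replicate 3 lay above every WT array and the other two below, and the difference was -0.20 (adjusted p = 0.643), or -0.62 (adjusted p = 0.00843) without KO replicate 3. Cxcl14 (0.49, adjusted p = 0.0823) and Cxcl16 (-0.22, adjusted p = 0.129), a membrane-bound ligand of Cxcr6, missed the threshold. Their groups were apart after background correction, but the deposited intensities of Cxcl16 overlapped, with 387 on 1 array labelled KO and 386 on 1 labelled WT. Cxcl1, a neutrophil attractant, read -0.36 (adjusted p = 0.272), and Cx3cl1, the tethered ligand of Cx3cr1, read -0.16 (adjusted p = 0.400). Among the other CC ligands, Ccl19 read 0.18, Ccl21a -0.13, Ccl21c -0.22, Ccl24 -0.14, Ccl25 0.15 and Ccl27a 0.21 (adjusted p 0.116 to 0.592). Ccl21a and Ccl21c, and Ccl27a with its relatives, are near-identical copies, so their probes may read more than 1 gene.

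Of the 5 receptors measured in GWAT, Cxcr4 alone passed. Cx3cr1, carried by macrophages and monocytes, read -0.03 (95% interval -0.45 to 0.39), Ccr6 read 0.04 (-0.29 to 0.37) and Ccr7 read 0.32 (-0.10 to 0.73). Each of these 3 had groups that overlapped.

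**Figure D2:**
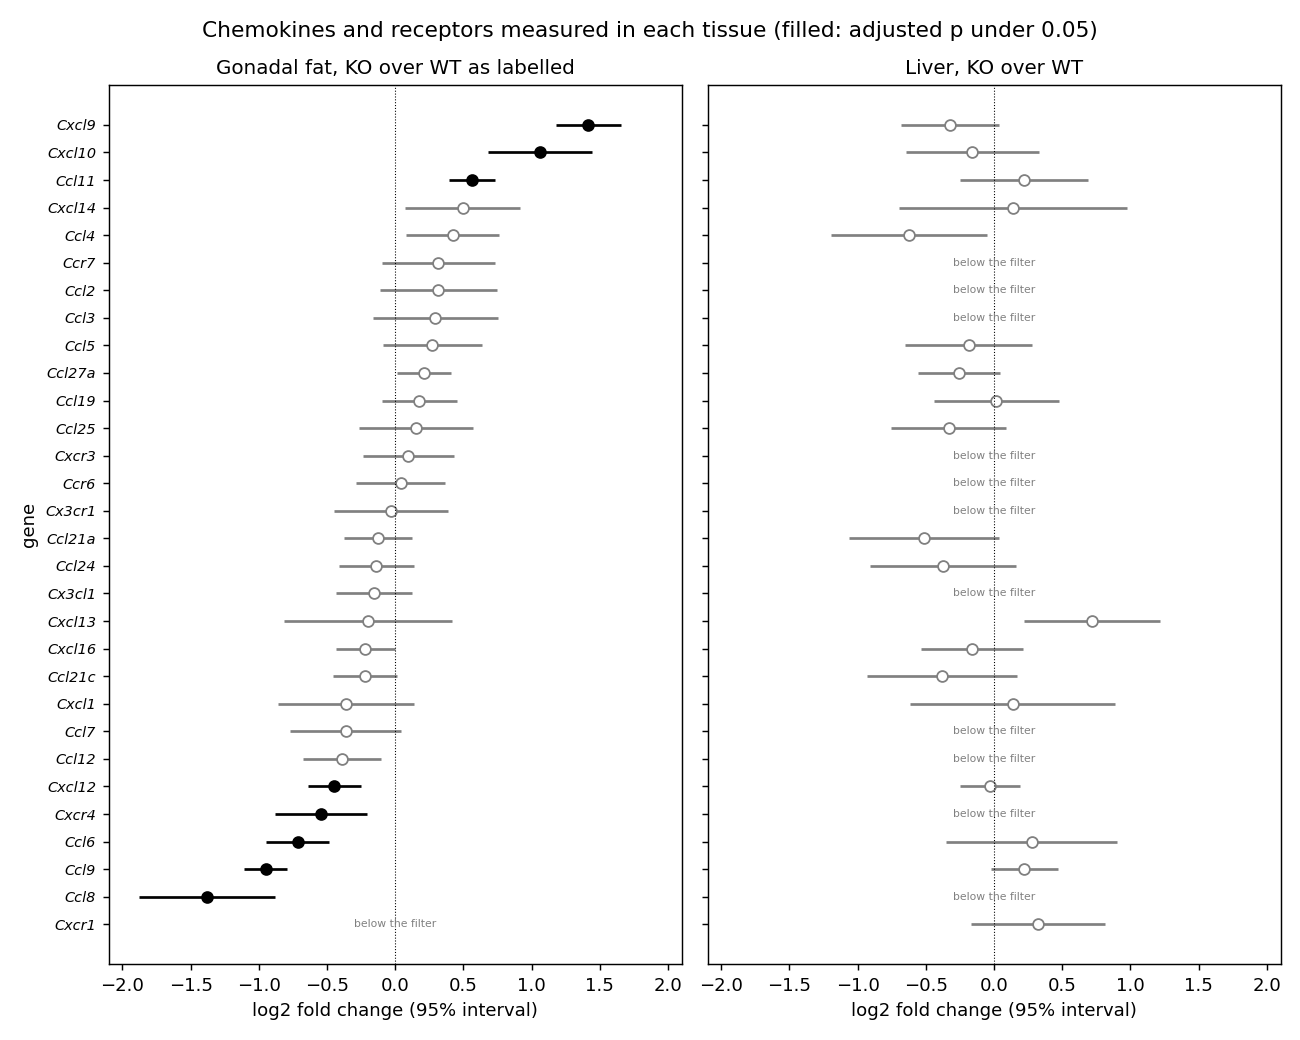
Log2 fold change, KO over WT as labelled, with its 95% interval for each member measured in GWAT (left panel) and liver (right panel), ordered by the GWAT value, filled where the adjusted p is under 0.05. Cxcl9 at 1.41 and Ccl8 at -1.38 are the extremes in GWAT, and no liver point is filled.

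Among the liver arrays, none of the 19 measured members passed the threshold in limma, against a background of 0.0996% of 9033 genes called (0.0554% higher and 0.0443% lower). An unadjusted p under 0.05 was found for 2, and 1 passed with array weights, both without a share of all genes to set beside them. The median log2 fold change was -0.16, beside -0.04 over all genes, with 8 members above 0 and 11 below. After background correction the KO and WT liver arrays did not overlap for 2 members that were higher, Cxcl13 and Ccl9 (5.83% of all genes), and 2 that were lower, Ccl4 and Ccl27a (9.82% of all genes).

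Cxcl13 had the smallest p in liver. It read 134, 147 and 144 on the KO arrays and 128, 113 and 121 on the WT arrays, above background on 3 and on 1 of them. The difference was 0.72 (SE 0.23, adjusted p = 0.430). Weighting the arrays by quality gave 0.81 and an adjusted p of 0.0449. Ccl4, an inflammatory CC ligand, read 145, 134 and 119 on the KO arrays and 145, 176 and 145 on the WT arrays, so that the groups touch at 145 on the deposited scale and are apart only after background correction. Its difference was -0.62 (SE 0.27, adjusted p = 0.496). Ccl21a followed, at 154, 132 and 126 on the KO arrays and 154, 143 and 168 on the WT arrays (-0.51, SE 0.26, adjusted p = 0.557).

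Ccl9 in liver read 2436, 2519 and 2599 on the KO arrays and 2219.8, 1954 and 2365 on the WT arrays. Each KO array was above each WT array, but the difference of 0.22 (SE 0.11, adjusted p = 0.564) did not pass. Cxcl9 read 302, 387 and 350.4 on the KO liver arrays and 406, 381 and 437 on the WT liver arrays, with overlap (-0.33, SE 0.17, adjusted p = 0.564). Cxcl1 varied widely within groups, at 2674, 1316 and 889 on the KO liver arrays and 1222, 945 and 2063 on the WT liver arrays. Its 95% interval of -0.62 to 0.89 leaves changes of that size undetected. Cxcr1, a receptor of neutrophils, read 126, 127 and 122 on the KO arrays and 108, 123 and 117 on the WT arrays (0.32, adjusted p = 0.686). Cxcl10 read 132, 119.8 and 127 on the KO liver arrays and 136, 131 and 126 on the WT liver arrays, with overlap and close to background. The other members read from -0.38 to 0.28 (lowest adjusted p 0.584). Probes of 1 gene differed in direction for Ccl21c, at -0.38 and 0.28, for Ccl25, at -0.33, 0.32 and 0.25, and for Cxcl16, at -0.16 and 0.07, and no probe of these 3 genes passed.

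Cxcl12 in liver depended on the probe. Its brightest probe, annotated to the transcript NM_013655, read 9276, 8709 and 9582 on the KO arrays and 10543, 9181 and 8500.3 on the WT arrays (-0.03, adjusted p = 0.954). The probe of NM_021704 read 529, 598 and 855 on the KO arrays, against 422, 359.7 and 451 on the WT arrays. The probe of NM_001012477 read 457, 494 and 732 on the KO arrays, against 363, 336 and 344 on the WT arrays. The groups were apart on these last probes, at 0.81 (SE 0.20) and 0.83 (SE 0.20), but the adjusted p over probes was 0.266 and 0.239, where 0.0751% of all liver probes passed. KO replicate 3 was the highest array on both.

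**Figure D3:**
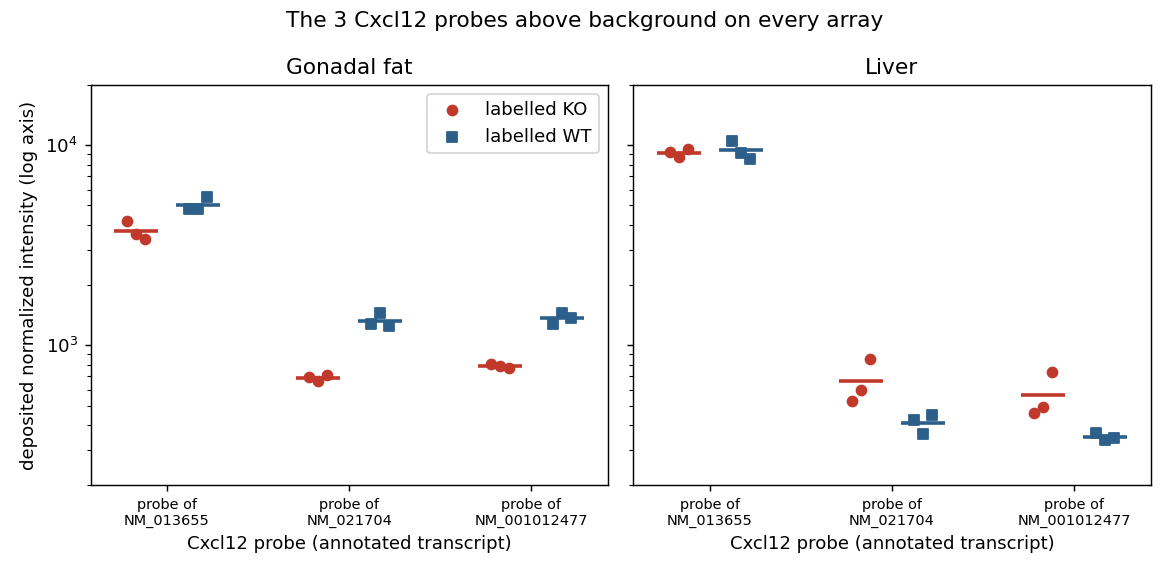
Deposited normalized intensity (log axis) of the 3 Cxcl12 probes above background on every array, in GWAT (left panel) and liver (right panel), with arrays labelled KO as circles on the left of each pair, WT as squares on the right, and bars at the group means. All 3 probes are lower in GWAT labelled KO, while in liver the brightest overlaps between groups and the other two are higher in KO.

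The difference between tissues was tested as the GWAT fold change minus the liver fold change, for the 17 members measured by the same probe in both. It passed for 3 of them, Cxcl10 included, against a background of 7.69% of 8058 genes (4.43% higher and 3.26% lower). The count was 6 with no background correction, 6 with normexp at an offset of 50, 5 with probes averaged, 8 with array weights and 5 without KO liver replicate 1. Shares of all genes under these alternatives are not given here, so the 7.69% is no background for those counts. Cxcl9 differed by 1.74 (SE 0.20, adjusted p = 6.86e-05), from 1.41 in GWAT and -0.33 in liver. Cxcl10 differed by 1.22 (SE 0.27, adjusted p = 0.0123), from 1.06 in GWAT and -0.16 in liver. Its labelled WT GWAT arrays were below background, so this size is not exact. It passed the GWAT filter through the labelled KO arrays alone, so its call after the filter is no independent support. Its adjusted p was 0.0152 with no filter and 0.0606 with all 12 arrays normalized together. Ccl9 differed by -1.17 (SE 0.13, adjusted p = 4.58e-05), from -0.95 in GWAT and 0.22 in liver. Ccl4 (1.05, adjusted p = 0.0567), Ccl6 (-0.99, adjusted p = 0.0754) and Cxcl12 (-0.42, adjusted p = 0.0809) came next. With each probe tested on its own (background 6.28% of probes), Cxcl12 also differed on the probes of NM_021704 (-1.80, SE 0.23, adjusted p = 2.78e-04) and NM_001012477 (-1.65, SE 0.22, adjusted p = 3.65e-04). With the GWAT labels exchanged, a reading added after the data were seen, the sign turned for Cxcl9, Cxcl10 and Ccl9. Cxcl9 then differed by -1.09 (adjusted p = 0.00422) and Ccl9 by 0.73 (adjusted p = 0.00338), while Cxcl10 at -0.90 did not pass (adjusted p = 0.0516). Ccl11 at -0.78 (adjusted p = 0.0139) and Cxcl12 at 0.48 (adjusted p = 0.0470) then passed.

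Other genes of chemokine biology were taken from lists. Atypical receptors bind chemokines without signalling through G proteins, and several clear or store them. The list taken here also holds Ccrl2 and Pitpnm3, to which that description need not apply. In GWAT all 6 listed genes were measured and 3 passed, where 24.9% of all genes were called. Ackr1, which binds many chemokines on venules, fell by 0.58 (SE 0.11, adjusted p = 0.00487), Ackr2, a scavenger of inflammatory CC ligands, rose by 0.34 (SE 0.09, adjusted p = 0.0179), and Ackr4, a scavenger of Ccl19, Ccl21 and Ccl25, rose by 0.37 (SE 0.12, adjusted p = 0.0448). Of 5 measured ligands whose symbols fall outside the pattern, 1 rose, where 12.7% of all genes were called higher. It was the platelet chemokine Ppbp at 0.74 (SE 0.13, adjusted p = 0.00226), beside Pf4 at -0.22 (adjusted p = 0.271) and Tafa5 at 0.23 (adjusted p = 0.307).

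Genes of signal transduction below the receptors and of chemokine induction were called about as often as the 24.9% of all GWAT genes (12.7% higher and 12.2% lower). Of 26 signalling genes 7 fell and 0 rose, with a median of -0.14. They included Dock2, the Rac activator of migrating leukocytes (-1.12, SE 0.19, adjusted p = 0.00207), Was, the actin regulator of blood cells (-0.64, SE 0.11, adjusted p = 0.00206), and Arrb1, a beta-arrestin (-0.51, SE 0.10, adjusted p = 0.00589). Of 28 genes listed under chemokine induction 6 fell and 0 rose, with a median of -0.05. That list mixes activators with inhibitors, so the falls do not give a direction of induction. They were led by Nfkbia, the NF-kB inhibitor that NF-kB itself induces (-0.69, SE 0.08, adjusted p = 3.23e-04), Cebpb (-0.62, SE 0.08, adjusted p = 4.17e-04) and Relb (-0.65, SE 0.11, adjusted p = 0.00178). Tnf, Il6, Ifng and Il1a did not pass the filter in GWAT.

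Genes that process or present chemokines moved both ways, with 7 of 18 fallen and 3 risen, beside 12.2% of all genes called lower and 12.7% called higher. The heparan sulfate proteoglycan Gpc1 rose by 1.26 (SE 0.11, adjusted p = 5.29e-05), while Ext1, an enzyme of heparan sulfate synthesis (-0.95, SE 0.09, adjusted p = 6.32e-05), and the syndecan Sdc4 (-0.78, SE 0.08, adjusted p = 1.15e-04) fell. Of 16 genes of leukocyte adhesion 4 fell and 2 rose, beside the same shares of all genes. Selplg, the selectin ligand (-0.89, SE 0.10, adjusted p = 2.16e-04), Itgb7 (-0.90, SE 0.11, adjusted p = 4.17e-04) and Vcam1 (-0.59, SE 0.09, adjusted p = 0.00104) led that list. In liver none of the members of these 6 pathway lists passed in limma. The lowest adjusted p was 0.298, for Pecam1 at 0.70.

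**Figure D4:**
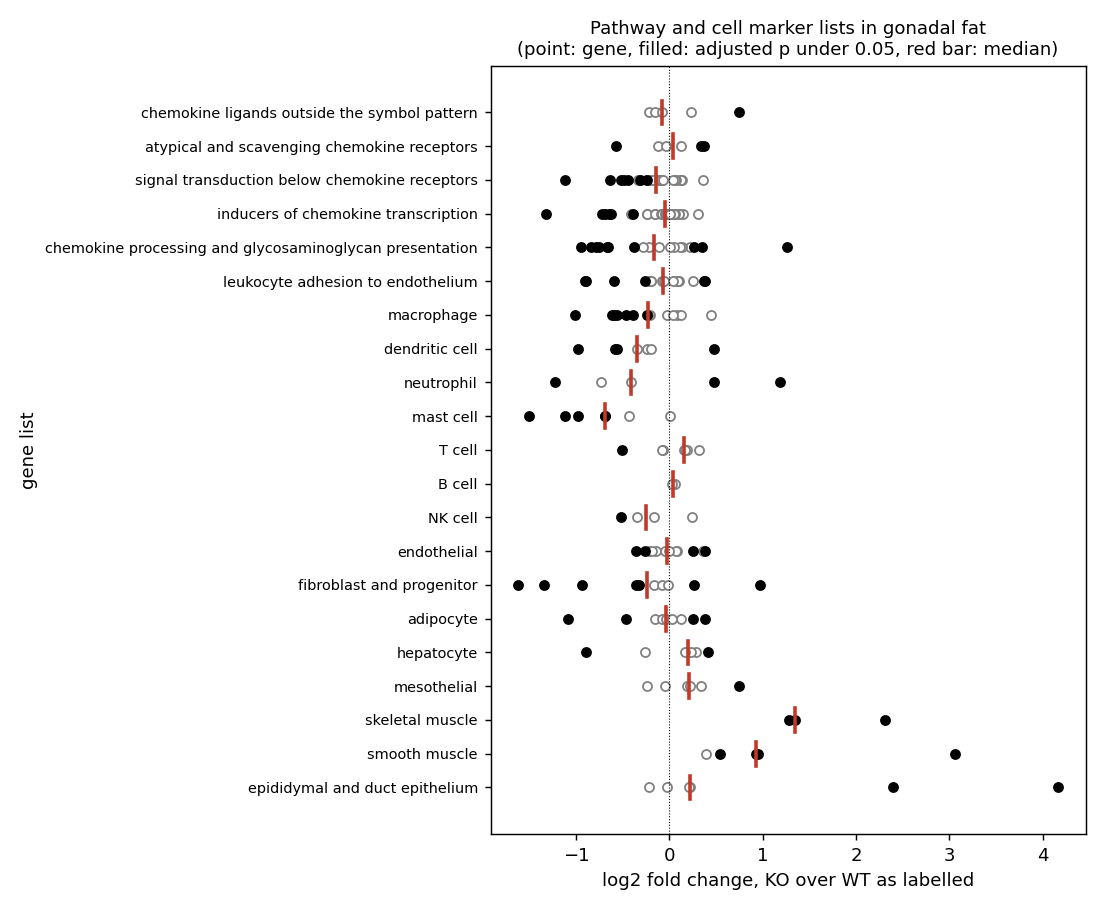
Log2 fold change, KO over WT as labelled, of each measured gene of the pathway and cell marker lists in GWAT, filled where the adjusted p is under 0.05, with a red bar at the median of each list. All 7 called genes of signal transduction lie below 0. So do all 6 called genes of the list of inducers, which also holds inhibitors such as Nfkbia. The called genes of skeletal and smooth muscle lie above 0.

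Markers of tissues other than fat also differed between the GWAT groups, where 12.7% of all genes were called higher and 12.2% lower. Skeletal muscle markers rose for 3 of 3 measured (of 7 on the array), with sums of 1574 to 2387 on the arrays labelled KO and 588 to 644 on those labelled WT. Smooth muscle markers rose for 4 of 5, with sums of 11817 to 20004 on the arrays labelled KO and 8501 to 10397 on those labelled WT. Of 6 epithelial markers Fxyd4 (4.17, SE 0.35) and Aqp2 (2.39, SE 0.38) rose. Of 5 neutrophil markers S100a8 (1.18) and S100a9 (0.48) rose and Retnlg (-1.23) fell. Of 7 dendritic cell markers 3 fell and 1 rose, led by H2-DMb2 (-0.56), Clec9a (-0.98) and Batf3 (-0.58), with sums of 1082 to 1288 on the arrays labelled KO and 1509 to 1918 on those labelled WT. Of 9 adipocyte markers 2 rose and 2 fell, of 6 hepatocyte markers 1 rose and 1 fell, and of 6 mesothelial markers 1 rose. Of the 2 B cell markers measured, none passed in limma. Their part in the chemokine differences was not tested. In liver the only marker that passed was Lyz2, a macrophage lysozyme (1.00, SE 0.15, adjusted p = 0.0167), in a macrophage list with sums of 6242 to 6591 on KO and 4759.98 to 5521 on WT arrays.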

How the data were processed

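RNA of 12 mouse samples was measured on Illumina bead arrays. The values are normalized intensities as deposited by the authors, and how they were normalized is unstated in these sources. Sorted intensities of the arrays agreed to within 0.461% (liver) or 1.22% (GWAT), so each tissue was on 1 common distribution. Each unused table names 1 chip, but its columns match no sample, so which chip held which array could not be checked. An effect of chip therefore cannot be told apart from tissue. The 48 columns that match no sample were not used. Of 45281 probes, 34885 carried 1 gene symbol, 18 several and 10378 none.

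Intensities were background-corrected with normexp on 1528 background probes (offset 16), taken to log2 and fitted per tissue with limma 3.58.1 in R 4.3.3, with 1 probe per gene (the brightest that passed the filter). A further fit over both tissues tested the difference. All filtered genes were tested together. The fit was tested on simulated data with known changes. The number of arrays limits the precision. Members and lists were chosen with earlier results of these data known.

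Values on every array are given for members past the threshold, the 5 of lowest p in liver, and members on in all arrays of 1 genotype and none of the other. Of each list up to 3 genes of lowest p are named, and some members were added after their values were seen. Same-numbered arrays did not deviate together (correlations of -0.0212 to 0.153), so the fit is unpaired. Alternatives changed the background correction, the filter, the probe rule, the variance model, array weights, the joint normalization and the arrays left out.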

Additional observations from a re-analysis of the deposited data

Results flagged for a closer look

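The difference of the genotype effects, GWAT minus liver, passed its own test for 3 members, where 7.69% of all 8058 genes passed. It passed for 2 to 8 members under the alternatives, for which shares of all genes are not given here. It was -1.17 for Ccl9, 1.74 for Cxcl9 and 1.22 for Cxcl10, on the log2 scale. The value of Cxcl10 is not exact, since its labelled WT GWAT arrays were below background and it passed the GWAT filter through the labelled KO arrays alone, and its call was lost with all 12 arrays normalized together (adjusted p = 0.0606 in limma). It also passed for Cxcl12 on the probe of NM_021704, at -1.80, and on that of NM_001012477, at -1.65. GWAT directions are those of labels that Cav1 contradicts. The mice were 8 weeks old for GWAT and 12 weeks old for liver, so tissue and age cannot be told apart. The chip of each array could not be checked, so an effect of chip cannot be told apart from tissue either.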

How the results depend on the processing

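Counts under the alternatives are given without the share of all genes called, so they show only how the calls of members depend on the settings. In GWAT 8 members were called, and 7 to 10 under the alternatives that keep all arrays, other than array weights, which called 14. Leaving out 1 array gave 6 to 9. Of the 8 calls, Cxcr4 was lost in 5 of its 15 alternatives (adjusted p = 0.0656 with no filter in limma, beside the 4 arrays named above), and the other 7 held wherever they could be tested. Cxcl10 could not be tested without any 1 of the arrays labelled KO, since it then failed the filter. In liver 0 members were called under every alternative except array weights, which called 1, and the range with 1 array left out was 0 to 0.

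For the difference between tissues, 3 members were called. The count was 6 with no background correction, 6 with normexp at an offset of 50, 5 when probes of a gene were averaged and 8 with array weights. Leaving out 1 array gave 2 to 5, the highest without KO liver replicate 1. With all 12 arrays normalized together it was 2, and Cxcl10 no longer passed (adjusted p = 0.0606 in limma). The cause was not tested. With the GWAT labels exchanged, added after the data were seen, the values turned to 0.73 for Ccl9, -1.09 for Cxcl9, -0.90 for Cxcl10, -0.78 for Ccl11 and 0.48 for Cxcl12. With the replicate number as a block, the counts stayed at 8 in GWAT, 0 in liver and 3 for the difference, and the numbers do not pair the arrays. Probes near background limit what dim receptors can show.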
